A study of Mus musculus with 40 samples.

Results

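Insertions at the cuts of the 6 inner target sites of a lineage-tracing array are described here. They were chosen by the listed position and kind of each edit: an insertion with no deletion, lying exactly at the expected Cas9 cut of target site 3, 4, 5, 6, 7 or 8 of the 10 sites. The list held 2211 such insertions among 15632 insertions and 42668 edits of every kind. They lay in 1874 of 12767 distinct edited arrays, called alleles (14.7%, 95% exact binomial interval 14.1 to 15.3%). Position and kind are therefore part of the choice and are no finding, whereas length, base content, neighbouring edits and abundance were not used in it.

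The series sampled mouse liver lobes in 40 libraries from 5 animals, and the library with files here is the right inferior lobe of animal YK184, whose title carries E15.5. It is the sole library of its group analysed here, so there was no replicate and no comparison of stages, lobes or animals, and no test was made. What the mark dates, the age at collection, the strain, the sex and the treatment that starts editing are not given in the labels. They name total RNA of liver and no sorting of cell types. The array sits in a transgene at Col1a1, a collagen gene on chromosome 11 (GRCm38.p6, from base 94936224 to base 94953042), and no source used here places the transgene within that locus. Each array was read from RNA tagged at reverse transcription with a unique molecular identifier (UMI), and the library listed 32342 UMIs. A UMI stands for an RNA molecule, so more cells with an allele and more array RNA per cell cannot be told apart. All intervals below are 95% exact binomial (Clopper-Pearson) intervals that cover counting error within this 1 list, and intervals that do not overlap describe the list and not a difference between tissues.

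DARLIN mice express Cas9 joined to terminal deoxynucleotidyl transferase (TdT). Cas9, guided by an RNA, cuts both DNA strands near the end of a target site, and the cell rejoins the ends with small losses or gains. When several sites are cut at once, the stretch between cuts can be lost. TdT, which in developing lymphocytes diversifies antigen receptor genes, adds bases to 3′ DNA ends without a template and is known to favour G. An insertion at a single cut is thus a record of a site that was cut and rejoined with added bases, and it can be read from the middle of the array where the larger losses spared that site.

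The bases around the 6 cuts can be read in part from the substitutions in the list, since each states the base it replaced. In the lines below, the 2 bases on each side of the cut are in lower case, n is a base that no listed substitution states, and the capitals are the commonest insertion at that site. They are shown because the base right of the cut decides where an insertion is listed.
Site 3, cut after base 76: naAcn
Site 4, cut after base 103: nnGct
Site 5, cut after base 130: cgAct
Site 6, cut after base 157: naAct
Site 7, cut after base 184: ngAcn
Site 8, cut after base 211: cgAcg
The commonest insertion was a single A at 5 of the 6 sites, with 107, 60, 104, 115 and 196 events at sites 3, 5, 6, 7 and 8. At site 4 it was a single G, with 122 events against 120 of A.

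The base right of the cut was C at every inner site. An added C next to that C gives the same array whether it is written before or after it. In the list all such additions were written after it. None of the 2211 insertions at the inner cuts began with C, and over all 10 cuts none of 13767 insertions began with the base right of the cut. At site 9, where that base is A, the same held for A. Just outside the rule, 235 insertions were listed 1 base right of an inner cut and 15 were listed 1 base left of one. Of the 235, 234 ended in C and give arrays identical to insertions at the cut that begin with C, and 189 of them were a single C. The list's way of writing an edit therefore removes these additions from the chosen set, and C at the start of an insertion is absent from it by construction. Counted at the cut, they raise the number of inner insertions to 2445. This recount was added after the data had been seen, and its values are given beside those as listed for base content, for the most frequent sequences and for part of the length and site values. Other values are as listed.

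The 6 sites differed in number of insertions. Site 8 had 552, site 3 had 468, site 4 had 421, site 7 had 313, site 6 had 294 and site 5 had 163. As shares of all alleles these were 4.32% at site 8 (interval 3.98 to 4.69%), 3.67% at site 3 (3.35 to 4.01%), 3.30% at site 4 (2.99 to 3.62%), 2.45% at site 7 (2.19 to 2.73%), 2.30% at site 6 (2.05 to 2.58%) and 1.28% at site 5 (1.09 to 1.49%). The intervals of sites 8 and 3 overlapped narrowly, as did those of sites 3 and 4 and those of sites 6 and 7. The interval of site 5 lay below the other 5.

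An insertion can be seen only where the site was spared by a joining deletion, defined here as a deletion that touches the 7-base cut windows of 2 or more sites. Few alleles spared an inner site. Site 8 was outside such deletions in 1288 alleles (10.1%, 9.57 to 10.6%), and sites 3, 4, 6 and 7 in 932, 946, 886 and 890 alleles. Site 5 was spared least, in 737 alleles (5.77%, 5.37 to 6.19%). Over the 6 sites this gave 5679 spared sites, and 38.9% of them (37.7 to 40.2%) carried an insertion at the cut.

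Among spared sites the share with an insertion ran from 50.2% at site 3 (47.0 to 53.5%) to 22.1% at site 5 (19.2 to 25.3%). It was 44.5% at site 4 (41.3 to 47.7%), 42.9% at site 8 (40.1 to 45.6%), 35.2% at site 7 (32.0 to 38.4%) and 33.2% at site 6 (30.1 to 36.4%). The array thus had its lowest insertion share in the middle, and site 5 stayed lowest in each of the 11 alternative ways of counting. The difference in number between sites 3 and 5 therefore came with fewer spared sites and with a lower share of insertions among them. Site 3 was highest in the main count but not at a minimum of 3 UMIs per allele, where site 4 had 44.8%, nor at 5 UMIs, where site 8 had 33.3%.

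The other edits at spared inner sites were mostly small losses. Deletions within the site with added bases made up 24.1% of outcomes (23.0 to 25.2%) and those without made up 18.4% (17.4 to 19.4%). A further 12.8% of spared inner sites were unaltered (11.96 to 13.7%). At site 5, deletions with added bases were more frequent than insertions, with 46.5% of altered sites (42.6 to 50.5%) against 25.9% (22.5 to 29.5%). At site 6 both made up nearly the same share of altered sites, 38.6% (35.1 to 42.1%) and 38.3% (34.9 to 41.9%). At sites 3, 4, 7 and 8 insertions were more frequent than deletions with added bases. At site 4 insertions made up 54.6% of altered sites (51.01 to 58.2%) and deletions with added bases 14.1% (11.8 to 16.8%). The values were 54.0% and 22.8% at site 3, 39.0% and 30.7% at site 7, and 49.6% and 20.2% at site 8.

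Inner insertions were short. Of the 2211, 1408 added 1 base (63.7%, 61.6 to 65.7%), 627 added 2 (28.4%), 117 added 3 (5.29%) and 59 added 4 or more (2.67%, 2.04 to 3.43%). Site 3 stood apart in length. Its 1-base share was 48.5% (43.9 to 53.1%), below the intervals of the other 5 sites, and its median insertion was 2 bases against 1 base elsewhere. The 1-base share was 62.9% at site 8 (58.7 to 66.9%), 64.8% at site 4 (60.1 to 69.4%), 71.9% at site 7 (66.6 to 76.8%), 73.1% at site 6 (67.7 to 78.1%) and 74.2% at site 5 (66.8 to 80.8%). Insertions of 3 bases made up 10.3% at site 3 (7.66 to 13.4%) and 1.23% at site 5 (0.149 to 4.36%). With the additions written 1 base to the right counted at the cut, the 1-base share was 49.9% at site 3 and 75.5% at site 5. At a minimum of 3 UMIs per allele site 3 was again lowest with 34.8% of 23 insertions, below 45.5% of 11 at site 5, and site 4 was highest with 76.9% of 39. At 5 UMIs site 5 was lowest, with 0 of 3 insertions.

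Over the 6 sites together, where the insertion was at the sole spared site of the allele, 64.4% of 284 insertions had 1 base (58.6 to 70.0%), and where 4 or more sites were spared, 64.8% of 857 did (61.5 to 68.0%). These pooled shares mix the sites in different proportions, since site 3 gave 20 of the 284 and 232 of the 857. Within a site the values could differ. At site 7 the 1-base share was 63.5% at the sole spared site (51.5 to 74.4%) and 79.9% with 4 or more spared (72.1 to 86.3%), with overlapping intervals. At site 8 it was 24% of 25 insertions with 2 spared sites (9.36 to 45.1%), below 61.9% with 3 (55.8 to 67.8%) and 68.1% with 4 or more (61.7 to 74.0%). In alleles with 1 UMI the share over the 6 sites was 63.4% of 1742 (61.1 to 65.7%), and in alleles with 2 or more UMIs it was 64.6% of 469 (60.1 to 68.9%).

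The inserted sequences were few and repeated. The 2211 insertions comprised 79 distinct sequences, of which 39 occurred once, and the 10 most frequent made up 90.2% of insertions. In the order of the list, a single A formed 702 insertions (31.8%, 29.8 to 33.7%), a single G 534 (24.2%, 22.4 to 25.99%) and a single T 172 (7.78%, 6.70 to 8.98%). Next came AG with 143 events, GG with 131, AA with 122, GA with 106, AT with 37, TA with 24 and GGA with 23. With the recount a single C, with 189 events, stood above the single T. The 4 combinations of A and G led the 2-base insertions, and of the 122 AA insertions 39 were at site 8. GG was most frequent at site 3, where it formed 48 of 169 insertions of 2 bases, and rare at site 5, where it formed 3 of 36.

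As listed, A and G prevailed on the strand in which the array is written. Insertions made of A and G alone were 83.7% of the 2211 (82.1 to 85.2%), from 78.8% at site 3 (74.9 to 82.5%) to 89.6% at site 5 (83.8 to 93.8%). When the additions listed 1 base to the right were counted at the cut, the share fell to 75.7% of 2445 (74.0 to 77.4%). The sites then ran from 70.2% at site 6 (64.9 to 75.1%) to 77.7% at site 4 (73.6 to 81.4%), and all 6 intervals overlapped. The order of the sites in this share, site 5 highest and site 3 lowest, was thus not kept.

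The single added bases show the effect of the listing most plainly. With the recount there were 1597 single-base additions, of which 44.0% were A (41.5 to 46.4%), 33.4% G (31.1 to 35.8%), 11.8% C (10.3 to 13.5%) and 10.8% T (9.29 to 12.4%). The intervals of C and T overlap, although no single C was listed at the cut itself. The share of C was 7.72% at site 3 (4.71 to 11.8%) and 15.4% at site 8 (12.01 to 19.2%).

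A was more frequent than G among single added bases. Of the single A and G at the inner cuts, 56.8% were A (54.0 to 59.6%). Site 8 had the highest share of A, with 196 A and 114 G (63.2%, 57.6 to 68.6%), and site 4 had the lowest, with 120 A and 122 G (49.6%, 43.1 to 56.1%). At sites 5, 7 and 8, where the base left of the cut is G, an added single G made up 39.7% (30.9 to 49.0%), 39.1% (32.7 to 45.8%) and 32.9% (27.9 to 38.1%) of the single-base insertions at the cut. With the recount these were 33.8% (26.1 to 42.2%), 35.2% (29.3 to 41.5%) and 27.8% (23.5 to 32.4%). At sites 3 and 6, where it is A, an added single A made up 47.1% (40.5 to 53.9%) and 48.4% (41.5 to 55.3%). With the recount these were 43.5% (37.2 to 49.9%) and 42.3% (36.03 to 48.7%). Where the base left of the cut differs, the shares were similar. With the recount a single G made up 34.1% at site 3 and 31.7% at site 6. A single A made up 42.3% at site 5, 46% at site 7 and 47.8% at site 8. For each base all these recount intervals overlapped, so no excess of the base left of the cut was seen.

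As listed, the share made of A and G alone was 87.8% for 1 base (86.0 to 89.4%), 80.1% for 2 bases (76.7 to 83.1%), 68.4% for 3 bases (59.1 to 76.7%) and 55.9% for 4 or more (42.4 to 68.8%). With the recount it was 77.4% (75.3 to 79.4%), 75.9% (72.5 to 79.2%), 66.7% (57.5 to 75.01%) and 49.3% (36.8 to 61.8%). The intervals of 1 and 2 bases then overlap, so the step between them is not kept, whereas the interval for 4 or more bases lies below both. Such a share falls with length even at constant base content, since every base must be A or G. Among all inserted bases as listed, A and G made up 49.9% and 37.9% in insertions of 1 base. The values were 45.0% and 44.2% for 2 bases, 47.3% and 40.2% for 3, and 52.3% and 24.6% for 4 or more. The last base was A in 40.2% of the insertions of 2 bases, 65.0% of those of 3 and 81.4% of those of 4 or more, and with the recount in 40.7%, 64.2% and 77.6%.

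Long insertions were rare at the inner sites, with 7 of 10 or more bases. The longest at each site among alleles with at least 2 UMIs are shown here because more than 1 UMI carries each of them, with the insertion in capitals between the stated bases around the cut. Longer insertions in 1 UMI each reached 28 bases at site 7, 13 at site 4, 11 at site 5 and 6 at site 3.
Site 3, 2 UMIs: naGAAAAcn
Site 4, 2 UMIs: nnAAGAAct
Site 5, 3 UMIs: cgGAAct
Site 6, 2 UMIs: naATATGGAGTCGCGCATct
Site 7, 5 UMIs: ngGGAcn
Site 8, 2 UMIs: cgACAGTCGAGCGATGGGAGCGAGTcg
Those at sites 3, 4, 5 and 7 are made of A and G alone, whereas the insertions of 16 bases at site 6 and of 23 bases at site 8 hold all 4 bases. The long stretches shared sequence with other alleles. The first 15 bases of the site 8 insertion also occurred within an inserted stretch of 1 other allele, and 12 bases of the site 6 insertion in 2 others. A further long insertion at site 5, named after its values were seen and carried by 1 UMI, recurred whole in 15 other alleles.
Site 5, 1 UMI: cgTATCGTATCGAct
Where these stretches come from was not tested.

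Every inner insertion lay in an allele that had also lost a multi-site stretch of the array. Of the 2211, 1068 had joining deletions on both sides (48.3%, 46.2 to 50.4%), 628 on the left only (28.4%) and 515 on the right only (23.3%). None of 2211 had a joining deletion on neither side, which allows a share of up to 0.136% by the limit of 3 counts and 0.167% by the exact interval. The same held for insertions at the cuts of sites 1, 2, 9 and 10, with 0 of 11556 (up to 0.0319% by the exact interval). This trait is therefore not particular to the inner sites. The arrays that remained were 57 to 227 bases long, with a median of 121 bases (quartiles 113 and 147), where the whole array has 276.

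The side of the losses followed the position of the site. At site 3, 83.5% of insertions had a joining deletion on the right only (79.9 to 86.8%) and 16.5% on both sides (13.2 to 20.1%). At site 8, 88.9% had it on the left only (86.0 to 91.4%) and 11.1% on both sides (8.56 to 14.0%). Sites 3 and 8 each have 2 further sites on their outer side, so the sole joining deletion possible there takes both of those sites. In the middle, losses on both sides were the rule, with 74.8% at site 4 (70.4 to 78.9%), 88.3% at site 5 (82.4 to 92.8%), 93.5% at site 6 (90.1 to 96.1%) and 62.6% at site 7 (57.001 to 68.0%).

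Around the insertion the array was usually intact to the next cut on each side. The stretch kept between the nearest edits left and right had a median of 53 bases (quartiles 52 and 54), close to 2 repeat units of 27 bases, and 72.1% of insertions (70.2 to 74.0%) had a kept stretch of 51 to 57 bases. Another edit lay within 10 bases of the cut in 32 of 2211 insertions (1.45%). The nearest edit was often a further insertion rather than a loss, in 30.6% of cases on the left and 31.8% on the right. At site 3 the nearest edit on the left was an insertion in 72.2%, and at site 8 that on the right was one in 64.1%.

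Where the nearest edit was a joining deletion, it mostly ended at the very next cut. On the right, 77.2% of 1200 such deletions (74.7 to 79.5%) left exactly 27 bases between the 2 cuts and 4.83% left 28. On the left, 48.5% of 1333 (45.8 to 51.3%) left 27 bases and 21.7% left 28. With the 6 sites pooled, the 2 sides also differed in added bases at the join: 48.8% of the left deletions carried them (46.0 to 51.5%) against 28.6% of the right ones (26.04 to 31.2%). At sites 3, 4, 6 and 8 the left interval lay above the right one. At site 5 the intervals overlapped, with 43.4% on the left and 34.2% on the right. At site 7 the order was reversed, with 38.4% and 42.0% and overlapping intervals. A deletion whose ends share a base can be written at more than 1 position, so part of the shift between 27 and 28 bases can lie in the listing. Among joins with added bases 27 bases were kept in 63.7% on the left (59.9 to 67.4%) and 80.5% on the right (75.9 to 84.5%). Among joins without them the values were 34.1% (30.6 to 37.8%) and 75.8% (72.8 to 78.7%). What sets the sides apart was not tested.

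Added bases at the right-hand join differed between sites. They were present in 14.5% of 304 such joins at site 4 (10.7 to 18.9%), 22.95% of 61 at site 8 (13.2 to 35.5%), 28% of 225 at site 6 (22.2 to 34.4%), 34.1% of 317 at site 3 (28.9 to 39.6%), 34.2% of 117 at site 5 (25.7 to 43.5%) and 42.0% of 176 at site 7 (34.7 to 49.7%). On the left they ran from 38.4% of 250 at site 7 (32.3 to 44.7%) to 61.0% of 77 at site 3 (49.2 to 72.0%).

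Many joins reached the end of the array. The nearest left deletion ran from site 1 to the neighbour of the surviving site in 89.7% of 281 cases at site 4 (85.5 to 93.0%), 56.6% of 83 at site 5, 64.4% of 233 at site 6, 58.4% of 250 at site 7 and 61.6% of 409 at site 8. The nearest right deletion ran from the neighbour to site 10 in 45.7% of 317 cases at site 3, 55.6% of 304 at site 4, 67.5% of 117 at site 5, 49.3% of 225 at site 6 and 84.7% of 176 at site 7 (78.5 to 89.6%). Site 4 on the left and site 7 on the right have the fewest further sites on that side among those compared here. Fewer different joins were thus possible there, and the shares of the sites are not on an equal footing. At site 6 a right deletion of sites 7 to 9 was nearly as frequent, with 42.7% (36.1 to 49.4%). At site 5 the left side was more often divided, and 33.7% of its left deletions took sites 2 to 4 (23.7 to 45.0%).

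An array reduced to the insertion site alone was the simplest form. In 284 insertions (12.8%, 11.5 to 14.3%) the site was the sole one spared, with 23.6% at site 7 (19.0 to 28.7%), 21.6% at site 4 (17.8 to 25.9%), 18.03% at site 6 (13.8 to 22.9%), 13.5% at site 5 (8.66 to 19.7%), 4.35% at site 8 and 4.27% at site 3. In 39 alleles with 61 UMIs the losses ran exactly from cut to cut, with bases lost from 23 to the cut before the site and from the cut after it to 265. Of these, 17 alleles with 32 UMIs held the insertion at site 4, where bases 23 to 76 and 131 to 265 were lost.

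Some alleles recorded added bases at several inner sites. A single inner insertion was found in 1565 alleles, 2 in 282, 3 in 26 and 4 in 1. The 309 alleles with 2 or more (16.5%, 14.8 to 18.2%) gave 366 pairs of sites, of which 302 were neighbours (82.5%, 78.2 to 86.3%). Alleles with 3 or 4 insertions gave several pairs each, and the intervals on pairs ignore that these are not independent. The most frequent pairs were sites 3 and 4 with 95 alleles, 7 and 8 with 88, 4 and 5 with 56, 6 and 7 with 36, and 5 and 6 with 27. How often neighbouring inner sites are spared together was not worked out. The share of neighbours and the order of the pairs thus have no base level beside them. The same sequence stood at both sites in 66 of the 366 pairs (18.03%, 14.2 to 22.4%). No chance level was worked out for this share, and a single A formed 31.8% and a single G 24.2% of all inner insertions. Of the 1874 alleles, 1190 (63.5%, 61.3 to 65.7%) also held an insertion at the cut of site 1, 2, 9 or 10. It lay most often at site 10, with 37.9%, and site 1, with 29.03%. Over all alleles these shares were nearly the same, with 63.9% (63.0 to 64.7%), 39.1% and 30.4%. An outer insertion is thus not particular to alleles with an inner one.

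Alleles with an inner insertion were rare in UMIs. They held 2566 UMIs, which is 7.93% of all UMIs against 14.7% of alleles. Their median was 1 UMI, their mean 1.37 and their maximum 13, and 77.8% of them had 1 UMI (75.9 to 79.7%). Alleles without an inner insertion also had a median of 1 UMI. Their mean was 2.73 UMIs, and 60.6% of them had 1 UMI (59.7 to 61.5%). Alleles with 5 or more UMIs made up 2.03% of those with an inner insertion (1.44 to 2.77%) and 9.30% of those without (8.76 to 9.86%). The alleles without one included 431 with a single edit, which held 6273 UMIs, up to 1589 in 1 allele. No allele with an inner insertion can be in that class, since each also had a joining deletion. The mean UMIs with and without an inner insertion were 1.63 and 2.03 at 3 edits, 1.39 and 1.61 at 4, and 1.26 and 1.43 at 5.

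The number of edits differed between these alleles as well, with a median of 4 against 3. Among alleles with 3 edits, 68.3% of 322 with an inner insertion had 1 UMI (62.9 to 73.4%) against 59.3% of 4289 without (57.8 to 60.8%), with median remaining lengths of 91 and 89 bases. With 4 edits the shares were 76.7% of 742 (73.5 to 79.7%) and 71.5% of 2001 (69.4 to 73.4%), with remaining lengths of 118 and 113 bases. With 5 edits they were 80.8% of 505 (77.1 to 84.1%) and 78.0% of 744 (74.8 to 80.9%), whose intervals overlap. With 6 edits they were 86.3% of 255 (81.4 to 90.2%) and 77.7% of 323 (72.8 to 82.1%), which overlap as well, and with 7 or more 86.0% of 43 and 83.3% of 209. In each of these classes the gap in single-UMI alleles was smaller at an equal number of edits than over all alleles, with no steady change from 3 edits to 7 or more.

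In abundance the 6 sites had overlapping intervals, with the highest share of single-UMI alleles at site 3. The share with 1 UMI was 82.9% at site 3 (79.2 to 86.2%), 79.6% at site 6 (74.5 to 84.0%), 77.9% at site 5 (70.8 to 84.0%), 77.6% at site 7 (72.6 to 82.1%), 77.4% at site 8 (73.6 to 80.8%) and 76.7% at site 4 (72.4 to 80.7%). All 6 intervals overlap, although the value of site 3 lies above the upper bounds of sites 4, 7 and 8. The mean lay between 1.27 UMIs at site 3 and 1.41 at site 4.

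The most abundant of these alleles show the kinds of array in which an inner site survives. The largest, with 13 UMIs, had lost bases 23 to 184 with an added T, carried AA at the cut of site 8, had lost bases 237 to 245 at site 9 and lacked base 266 at site 10. Every site from 1 to 7 was thus taken in 1 event, and the last 3 were edited singly. An allele with 9 UMIs kept 3 neighbouring inner insertions. It had AG at site 5, GA at site 6 and A at site 7, between a loss of bases 24 to 76, a loss of bases 101 to 111 at site 4 and a loss of bases 212 to 265 with AC added, and 165 bases of array remained. It was the largest allele at sites 5, 6 and 7 alike. Another allele with 9 UMIs had AT at site 8 between a loss of bases 16 to 187 and a loss of bases 237 to 245, with GC listed 1 base right of the cut of site 10.

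The next 2, with 8 UMIs each, had 3 events. The first held A at site 6 between losses of bases 23 to 142 and 185 to 267. The second held A at site 8 between losses of bases 23 to 185 and 239 to 265. At site 4 the largest allele, with 8 UMIs, had G at the cut between a loss of bases 23 to 76 with an added G and a loss of bases 131 to 265. At site 3 it had TAA at the cut, after a loss of bases 23 to 49 with TG added and before losses of bases 101 to 111 and 131 to 265, again in 8 UMIs.

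Each inner site was spared less often than each of the other 4 sites, and carried an insertion less often when spared than sites 1, 2 and 10. Spared shares were 47.1% of alleles at site 1 (46.2 to 48.0%), 21.6% at site 2, 23.3% at site 9 and 55.4% at site 10 (54.6 to 56.3%), against 5.77 to 10.1% at sites 3 to 8. Insertion shares among spared sites were 70.5% at site 10 (69.4 to 71.5%), 64.4% at site 1 (63.2 to 65.6%) and 59.3% at site 2 (57.5 to 61.2%), each above the interval of every inner site. Site 9 had 35.5% (33.8 to 37.2%), below sites 3, 4 and 8. Its count at the cut leaves out 493 insertions listed 1 base to the right, all of which end in A. With the recount it was 52.1% at site 9 (50.3 to 53.9%) and 52.9% at site 3 (49.6 to 56.1%). The 1-base share was 34.3% at site 10 (33.0 to 35.6%), below every inner site, and 50.6% at site 1 (49.0 to 52.2%), where the interval overlaps that of site 3 alone. At site 2 it was 56.7% (54.3 to 59.1%), and at site 9 it was 78.3% (75.7 to 80.7%), a value above those of all 6 inner sites, or 72.5% (70.2 to 74.7%) with the recount. Alleles with an insertion at site 10 had 1 UMI in 65.8% (64.4 to 67.1%) and those with one at site 1 in 67.4% (65.9 to 68.8%), below the intervals of the 6 inner sites. The share was 71.3% at site 2 (69.05 to 73.5%) and 72.0% at site 9 (69.2 to 74.7%), with intervals that overlap those of part of the inner sites. Single insertions of G outnumbered those of A at site 1, with 877 and 778, and at site 2, with 428 and 359. At site 10 they were near parity, with 706 and 687. Site 9 had 559 single G, and its single A are listed 1 base to the right, with 296 events. A led at 5 of the 6 inner sites, but the interval of its share lay above parity at site 8 alone (57.6 to 68.6%).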

How the data were processed

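For this library the authors deposited 2 text lists without headers: the edits of each distinct allele, by array position, and the 12-base UMIs of each allele in the same line order. Neither list holds read numbers, so the depth in reads is unknown. Per the submitters' processing notes the build was mm10. Aligner, allele caller and filters: not given in the sources used here. Members and lists were chosen with earlier results of these data known.

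Cuts were placed after base 22 and every 27 bases from there on 10 sites of a 276-base array. This layout comes from general knowledge of the array. The cut window is the last 7 bases of the 20-base target. Each allele counted once. Bases beside cuts were read from the listed substitutions. Named were the 6 sites, the 10 most frequent insertions, the largest allele and longest insertion (at least 2 UMIs) per site, the 5 largest alleles and the 5 most frequent site pairs. On 2000 simulated alleles, insertions, flanking joins and spared sites were recovered in 100%. These alleles were built on the same layout with every insertion written at the cut. The simulation thus checks the counting alone, and neither the layout nor the way the list writes an edit. Python 3.11.15, numpy 2.4.6 and scipy 1.17.1 were used.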

Additional observations from a re-analysis of the deposited data

How the results depend on the processing

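Over 11 alternative settings, 37 of 63 values for the 6 sites together lay within the interval, or 1.5 times the count, of the main value, and 26 lay outside. For single sites the numbers were 252 and 126. None changed a call, since no test was made. Minimums of 2, 3 and 5 UMIs per allele left 469, 148 and 40 inner insertions, with 36.3%, 32.0% and 28.99% of spared sites holding an insertion and 57.6%, 68.9% and 75% of insertions between joining deletions. At 3 and 5 UMIs 60.8% and 60% had 1 base. By construction these minimums leave no allele with 1 UMI.

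The share of spared sites with an insertion was 36.5% weighted by UMIs, 43.3% with insertions within 1 base of the cut, 35.0% with alleles that differ by inserted bases folded, 46.5% with the whole 20-base target as window, 40.3% without alleles that hold an inserted stretch of 20 or more bases, 43.9% without alleles of over 5 events and 43.1% with the additions 1 base right counted at the cut, the setting added after seeing the data. Insertions between joining deletions were 51.9% weighted by UMIs, 51.7% with folding, 51.2% with the 20-base window and 52.6% without alleles of over 5 events. Insertions of A and G alone were 75.5% within 1 base of the cut and 75.7% with the recount. Alleles with 1 UMI were 56.8% weighted by UMIs and 71.0% with folding. Leaving out the largest allele moved no value beyond its interval. No paired analysis was possible because 1 library was analysed. The number of UMIs limits the precision, and intervals treat alleles as independent draws.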

Other observations

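Small deletions next to an inner insertion were varied. A local deletion was the nearest edit on a given side of an inner insertion in 474 cases. A deletion lying between 2 inner insertions of an allele counted for each, so cases are not alleles. The most frequent removed bases 185 to 186 at the cut of site 7. It stood beside 24 insertions at site 8 and 12 at site 6, 36 cases in all (7.59%). In the whole list 127 alleles held it. A loss of 10 bases from 97 to 106 at site 4 followed with 13 cases, 9 beside site 3 and 4 beside site 5. A loss of 22 bases from 222 to 243 at site 9 stood beside 12 insertions at site 8, out of 27 alleles that held it.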
